A study of Mus musculus with 4 samples.

Results

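Venous-type endothelial cells were selected from the kidney libraries by the transcripts of Ptn, Sema3d and Vcam1, and 72 cells met the rule among 2885 endothelial cells and 10535 cells in all. A cell counted as endothelial when Pecam1, Cdh5, Kdr and Tie1 together had at least 3 UMIs (unique molecular identifiers, a count of captured transcripts) and at least 12 UMIs per 10000. It counted as venous-type when the summed UMIs of Ptn, Sema3d and Vcam1 reached 2 and exceeded the sums of a peritubular capillary set (Igfbp3, Npr3, Esm1), an arterial set (Fbln5, Gja4, Sema3g), a glomerular set (Plat, Pi16, Ehd3) and a medullary-type set (Cryab, S100a4, Kitl). The values of these 19 genes chose the cells, so they are described and not tested.

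Veins and venules collect blood from the capillary bed, and their endothelium is the main site at which leukocytes leave the circulation. The nuclear receptor encoded by Nr2f2 holds endothelial cells in the venous state in part by restraining Notch signalling, which runs in arteries. Pleiotrophin, the product of Ptn, is a secreted heparin-binding growth factor, the product of Sema3d is a secreted guidance cue that binds neuropilins, and Vcam1 encodes an adhesion molecule that holds leukocytes through their integrins.

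The mice were C57BL/6J, 10 to 14 weeks old, and fell into 4 groups, each read by droplet-based 3' single-cell RNA sequencing: hypertension induced by angiotensin II (A2 HTN), salt sensitive hypertension (SS HTN), and the control of each model, given saline (A2 Ctrl) or kept on normal diet (SS Ctrl). Kidneys of all mice in a group were pooled before cells were taken with antibody-coated beads against CD31, the product of Pecam1, and then against podoplanin, so each group is 1 library with no replicate and animals cannot be told apart. The control table joins a pair of libraries that differ only by the barcode ending, and the sources used here do not say which model each belongs to, so they are called control library 1 and control library 2.

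The A2 HTN library held 27 venous-type cells among 1223 endothelial cells, the SS HTN library held 39 among 1517, and control library 2 held 6 among 126. Control library 1 held 0 among 19, which allows a share of up to 17.6% (exact binomial 95% interval). The share was 2.21% in the A2 HTN library (exact binomial 95% interval 1.46 to 3.20), 2.57% in the SS HTN library (1.83 to 3.50) and 4.14% in both control libraries together (1.53 to 8.79). The intervals overlap, cover counting error only, and follow from a rule that is easier to meet in a deeper cell. Venous-type cells had a median of 5307 UMIs in the A2 HTN, 3457 in the SS HTN and 2963 in the control library 2, against 4789.5, 2365 and 2811 in the other endothelial cells of the same libraries. After each cell was thinned to 1000 UMIs, 6 of 875 A2 HTN cells (0.686%), 18 of 1015 SS HTN cells (1.77%) and 1 of 88 control cells (1.14%) met the rule. At the edge of the rule, 12 of the 72 cells had exactly 2 UMIs over the 3 genes. A further 11 endothelial cells had 1 UMI of these genes and 0 in every other set. Another 16 had 2 or more but tied with another set, and 135 had 2 or more but a larger set of another class. Libraries shared at most 2 cell barcodes, and no venous-type barcode recurred in another library.

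The summed UMIs of the venous-type cells were 128831 in the A2 HTN, 140003 in the SS HTN and 15289 in the control library 2. Levels are given as UMIs per 1000000 (CPM) over the summed cells. Markers of other cells were low in them: the 18 tubule genes summed to 1106 CPM in the A2 HTN, 1050 in the SS HTN and 1965 in the control library 2 venous-type cells, against 894, 1747 and 1464 CPM in the other endothelial cells and 22865, 25148 and 25369 CPM in cells outside the endothelial gate. The macrophage genes C1qa, C1qb, Csf1r and Ptprc and the fibroblast gene Pdgfra had 0 UMIs in the venous-type cells of all 3 libraries. The fibroblast and mural list summed to 31.2 CPM in A2 HTN, 121 in SS HTN and 0 in control library 2 venous-type cells, with 17 UMIs behind the SS HTN value. The list held 14 measured genes in the A2 HTN and control tables and 12 in the SS HTN table. In venous-type cells 3 of the 14 had a UMI in the A2 HTN, 5 of the 12 in the SS HTN and 0 in the control library 2.

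The 3 rule genes were combined differently in the cells of the A2 HTN and SS HTN libraries. Ptn (chromosome 6, 36714924 to 36810179 on GRCm38) was detected in 5 of 27 A2 HTN cells, 27 of 39 SS HTN cells and 1 of 6 control cells. It stood at 70.1 CPM in the A2 HTN cells (exact Poisson 95% interval 32.1 to 133), 1708 CPM in the SS HTN cells (1498 to 1938) and 196 CPM in the control cells (40.5 to 574). In the other endothelial cells, Ptn had a UMI in 5 of 1196 A2 HTN, 10 of 1478 SS HTN and 1 of 120 control library 2 cells. Outside the endothelial gate Ptn stood at 12.4 to 33.8 CPM over the 4 libraries, with a UMI in 1.92% of A2 HTN and 2.49% of SS HTN cells.

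Sema3d (chromosome 5, 12383161 to 12588953) was detected in 25 A2 HTN, 28 SS HTN and 6 control cells. Its level was 795 CPM in the A2 HTN, 872 in the SS HTN and 1179 in the control cells, with overlapping intervals. Vcam1 (chromosome 3, 116110020 to 116129688) was detected in 21 A2 HTN, 27 SS HTN and 4 control cells, at 904, 872 and 655 CPM. Both were found in more of the other endothelial cells than Ptn was, in counts that the rule itself shapes. Among the other endothelial cells, Sema3d had a UMI in 209 of 1196 A2 HTN, 92 of 1478 SS HTN and 12 of 120 control library 2 cells. Vcam1 had a UMI in 97, 68 and 4 of these cells. The commonest combination was Sema3d with Vcam1 and no Ptn in the A2 HTN library, held by 17 of 27 cells, and all 3 genes in the SS HTN library, held by 16 of 39 cells. The highest single SS HTN cell reached 71.7 Ptn UMIs per 10000, and the median SS HTN cell 15.7, while the median A2 HTN cell had none.

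**Figure D1:**
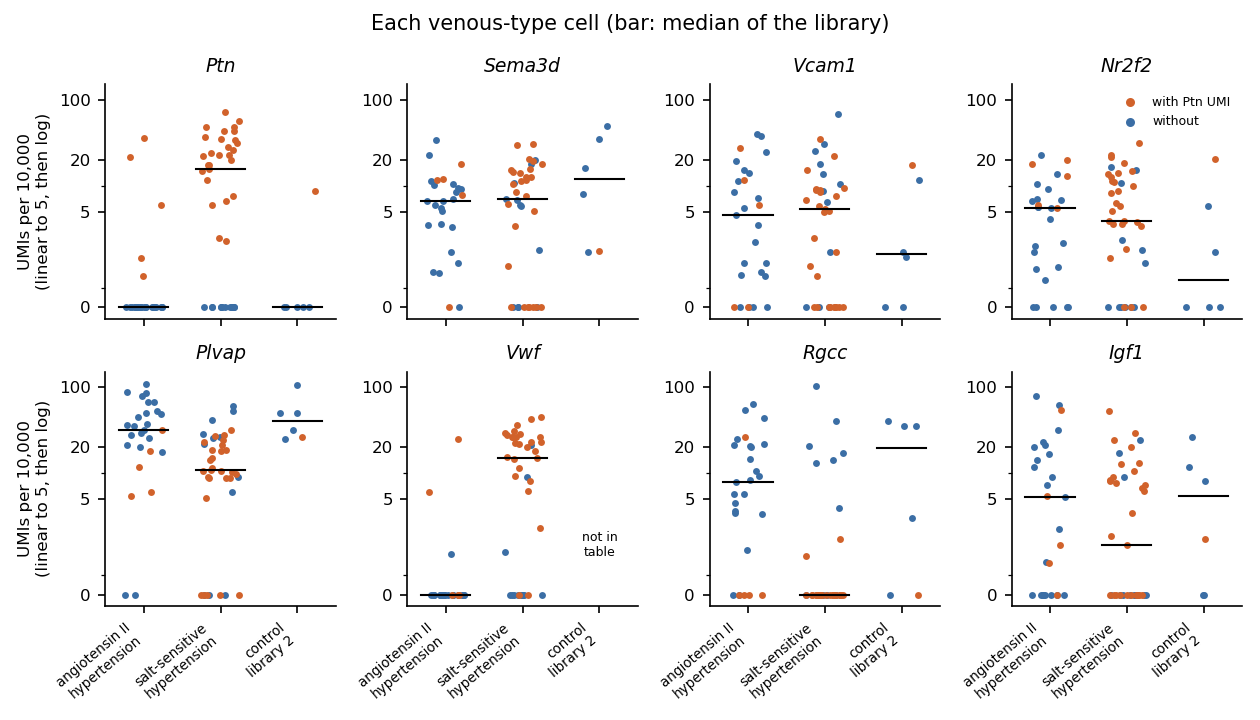
UMIs per 10000 of the rule genes Ptn, Sema3d and Vcam1 and of Nr2f2, Plvap, Vwf, Rgcc and Igf1 in each venous-type cell (points; linear to 5, log above), by library, with the library median as a bar and cells with a Ptn UMI in orange. Most SS HTN cells are orange and carry Vwf, and most A2 HTN cells are blue and carry Rgcc.

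Nr2f2 and Plvap, which are part of the label, and a list of venous genes were read outside the rule. The label and the list were chosen with earlier results of these data known, so their values are no independent check of it. Nr2f2 (chromosome 7, 70351946 to 70366746) was detected in 22 of 27 A2 HTN, 30 of 39 SS HTN and 3 of 6 control venous-type cells. Its level was 608 CPM in the A2 HTN venous-type cells against 89.5 CPM in the other endothelial cells of that library, and 757 against 61.1 CPM in the SS HTN library. In control library 2 it was 589 CPM in venous-type and 64.1 CPM in other endothelial cells. The log2 difference over both hypertension libraries was 3.16 ± 0.25 (SE; edgeR quasi-likelihood test with library as block, adjusted p = 4.8e-12). Plvap (chromosome 8, 71497753 to 71511806), which encodes the protein of the diaphragms of fenestrated capillaries and venules, had 4277 CPM in the A2 HTN venous-type cells and 2824 in the other endothelial cells, and 1672 against 1384 CPM in the SS HTN library. Its log2 difference of 0.40 ± 0.18 did not pass the test (adjusted p = 0.26).

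Of the venous list, 17 genes outside the rule were tested and 9 were higher in venous-type cells, 0 lower, where 3.45% of all 7482 genes tested were higher and 2.26% lower. The median log2 difference of the list was 0.80, against -0.0013 over all genes tested. Each difference given with its SE and adjusted p is the log2 difference fitted over both hypertension libraries, by the edgeR test. Vwf, which encodes the clotting and platelet-tethering protein von Willebrand factor, had 132 CPM in A2 HTN venous-type cells against 4.77 CPM in the other endothelial cells, and 1543 against 42.2 CPM in the SS HTN library (log2 difference 5.04 ± 0.30, adjusted p = 2.5e-15). In the A2 HTN library 15 of its 17 UMIs came from 1 cell, whereas 28 of 39 SS HTN cells carried it. Lrg1, which encodes a secreted glycoprotein of venular endothelium, was at 62.3 CPM in venous-type against 6.79 CPM in other endothelial cells of the A2 HTN library. In the SS HTN library it was at 379 against 11.4 CPM (4.36 ± 0.43, adjusted p = 7.9e-10). Bgn, the matrix proteoglycan biglycan, was at 615 CPM in venous-type against 86.0 CPM in other endothelial cells of the A2 HTN library. Its SS HTN levels were 543 against 79.9 CPM (2.76 ± 0.24, adjusted p = 4.3e-11). Biglycan transcripts were detected in 21 of 27 and 26 of 39 venous-type cells. The others were Cpe, Ptgs1, Il1r1, Ephb4 (the venous receptor of ephrin B2) and Gas6, with log2 differences between 0.73 and 4.16. DESeq2 called 6 of the 17 higher, the fit without the Ptn-bearing cells 2 (Nr2f2 and Bgn), the fit with no library block the same 2, the fit without the A2 HTN library 3 of 14 and that without the SS HTN library 2 of 13. Without the Ptn-bearing cells the Lrg1 difference was 2.75 ± 0.79 (adjusted p = 0.16). Of the postcapillary venule genes in the list, Selp had 1 UMI in the A2 HTN cells, and Ackr1 and Sele are not analysed here.

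Since cells were picked by the rule genes, a gene that varies with one of them differs in this comparison through the choice of cells, and the test describes which other genes go with the rule. In all, 258 genes were higher and 169 lower in venous-type cells at an adjusted p under 0.05, and 1094 had an unadjusted p under 0.05. The direction was the same in both libraries for 246 of the higher and all 169 of the lower genes. With the 5 A2 HTN and 27 SS HTN Ptn-bearing cells left out, 52 genes were higher and 24 lower, of which 47 and 24 were among those called with all cells. Without the A2 HTN library, with control library 2 in its place, 130 were higher and 77 lower, and without the SS HTN library 37 and 18.

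The gene with the highest log2 difference was Nlgn1, the cell-adhesion protein neuroligin 1, at 218 CPM in A2 HTN venous-type cells against 2.94 CPM in other endothelial cells, and 179 against 4.14 CPM in the SS HTN library (5.77 ± 0.44, adjusted p = 2.0e-12). It was carried by 10 cells of each library, and in control library 2 it was at 458 CPM in venous-type cells with 7 UMIs, against 0 in the other endothelial cells. Flrt2, which encodes a membrane protein that binds Unc5 receptors and latrophilins, had 210 CPM in venous-type against 9.36 CPM in other endothelial cells of the A2 HTN library. It stood at 429 against 18.1 CPM in the SS HTN library (4.49 ± 0.32, adjusted p = 3.0e-13). It was carried by 9 and 23 venous-type cells in these libraries. These 2 genes were spread over several cells in both libraries.

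For other genes the A2 HTN value rested on few cells. Adgrg6, an adhesion G protein-coupled receptor, had 23.4 against 1.65 CPM in the A2 HTN library, from 3 UMIs, and 329 against 6.47 CPM in the SS HTN library, from 20 cells (5.20 ± 0.52, adjusted p = 1.3e-09). Kirrel3, an immunoglobulin-family adhesion protein, had 125 against 2.20 CPM in the A2 HTN library, but 14 of its 16 UMIs were in 1 cell. Pcdh7, a protocadherin, had 31.2 CPM in venous-type against 3.12 CPM in other endothelial cells of the A2 HTN library. The SS HTN levels were 800 against 26.1 CPM (4.61 ± 0.36, adjusted p = 2.5e-12). The A2 HTN values were as sparse for the neurexin gene Nrxn3, the glutamate receptor subunit gene Gria3, the collagen gene Col14a1, the efflux pump gene Abcb1a and 2200002D01Rik, each with 2 to 6 UMIs in the A2 HTN cells, and for the last 18 of 29 SS HTN UMIs came from 1 cell. Cyp1b1, a cytochrome P450, ran the other way, with 10 UMIs (77.9 against 1.28 CPM) in the A2 HTN and 3 UMIs (21.4 against 2.59 CPM) in the SS HTN library. Vwf, Ncam1, Hs6st3 and the noncoding Mir100hg complete the 15 genes with the highest differences, which lie between 4.43 and 5.77.

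Among the 10 lowest genes, Sparcl1, which encodes the secreted matrix-associated protein hevin, had the most UMIs in venous-type cells. It was at 31.2 CPM in A2 HTN venous-type cells against 504 CPM in other endothelial cells, and at 35.7 against 497 CPM in the SS HTN library (-3.94 ± 0.37, adjusted p = 2.6e-10). It was carried by 1 A2 HTN and 2 SS HTN venous-type cells. The noncoding Gm35533 had 1 UMI in the A2 HTN cells (7.79 against 254 CPM) and 0 in the SS HTN cells, where other endothelial cells had 445 CPM, at least 20.7-fold lower when 0 is read as up to 3 UMIs per library. Prdm1, a transcriptional repressor gene, had 7.79 against 94.1 CPM in the A2 HTN library and 0 against 65.2 CPM in the SS HTN library. Epha6, an ephrin receptor gene, had 0 CPM in venous-type against 65.1 CPM in other endothelial cells of the A2 HTN library. In the SS HTN library it was at 21.4 against 295 CPM. Calca, Gm14226, Gzmk and Dlg2 had 0 UMIs in the venous-type cells of both libraries, and for Calca, which encodes calcitonin and its gene-related peptide, this was at least 8.05-fold lower than the 173 CPM of other endothelial cells in the SS HTN library. Gm37350 and St8sia4 had 0 UMIs in the A2 HTN and 1 UMI in the SS HTN cells.

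**Figure D2:**
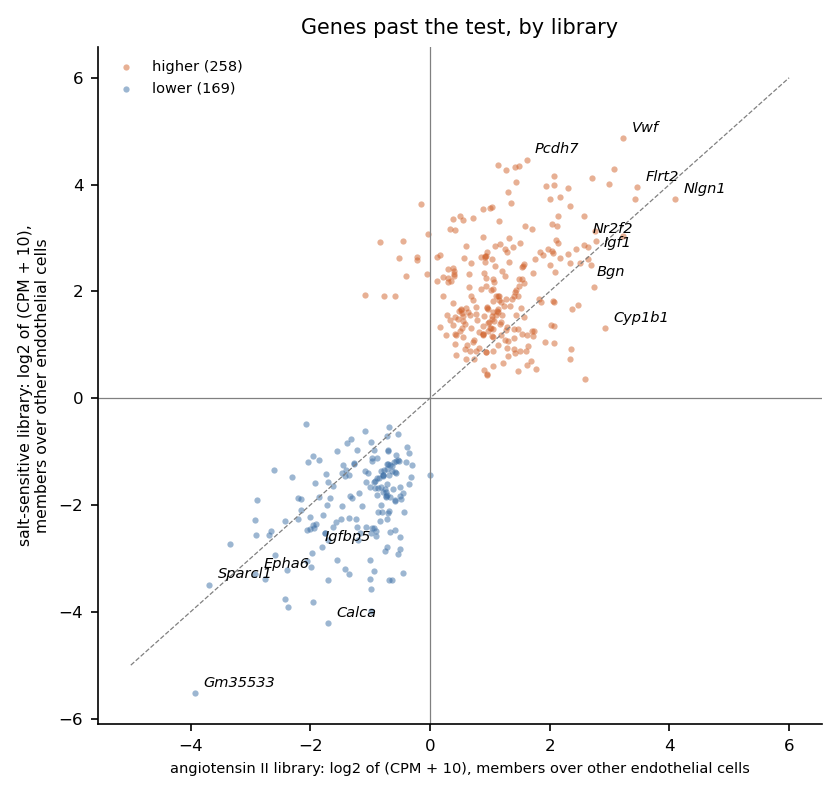
Difference between venous-type and other endothelial cells in the A2 HTN library (x axis) and in the SS HTN library (y axis), as log2 ratios of CPM + 10, for the 258 genes called higher (orange) and 169 called lower (blue); the dashed line marks equal differences. All 169 lower genes lie below 0 on both axes, 246 of the higher genes lie above 0 on both, and Vwf and Pcdh7 lie well above the dashed line.

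Capillary genes were lower in venous-type cells or did not pass the test. Of 11 genes tested from the peritubular and fenestrated capillary list, 6 were lower and 0 higher, with a median log2 difference of -0.61. Part of this direction is set by the rule, which asks for more venous than capillary transcripts. Gpihbp1, which anchors lipoprotein lipase to capillary endothelium, was at 273 CPM in venous-type against 1065 CPM in other endothelial cells of the A2 HTN library. Its SS HTN levels were 50.02 against 521 CPM (-2.47 ± 0.28, adjusted p = 2.7e-08). Igfbp5, a binding protein of insulin-like growth factors, was at 1465 CPM in venous-type against 5267 CPM in other endothelial cells of the A2 HTN library. It stood at 843 against 4297 CPM in the SS HTN library (-2.13 ± 0.19, adjusted p = 4.3e-11). Fabp4, a fatty acid carrier, was at 5734 CPM in venous-type against 8850 CPM in other endothelial cells of the A2 HTN library. The SS HTN levels were 679 against 7138 CPM (-1.95 ± 0.30, adjusted p = 8.5e-06). Nrp1, Plpp3 and Flt1 were lower as well, and Rgcc, Cd36, Plvap, Plpp1 and Adgrl4 did not pass the test. Without the Ptn-bearing cells, Gpihbp1, Igfbp5 and Nrp1 were still lower, and Cd36 and Adgrl4 were higher. DESeq2 called 3 of the 11 lower, the fit without the A2 HTN library 4, that without the SS HTN library 2 and that with no library block 0. Of 6 genes tested from the glomerular list outside the rule, which also takes part in choosing the cells, Mapt, Smad6 and Tbx3 were lower and 0 higher, with a median log2 difference of -1.81. Without the SS HTN library, and with DESeq2, 0 of these 6 passed. Of 16 lipid handling genes 3 were lower (Gpihbp1, Fabp4 and Fabp5) and 0 higher, with a median of -0.85.

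Genes of arterial identity and of Notch and BMP signalling were mixed or lower. Of 17 arterial genes tested, 6 were lower and 3 higher. Sox17, an arterial transcription factor gene, was at 93.5 CPM in venous-type against 381 CPM in other endothelial cells of the A2 HTN library. In the SS HTN library it was at 64.3 against 535 CPM (-2.57 ± 0.32, adjusted p = 1.7e-07). The Notch ligand gene Dll4 was at 23.4 CPM in venous-type against 163 CPM in other endothelial cells of the A2 HTN library. Its SS HTN levels were 0 against 124 CPM. Efnb2, Gja5 and Edn1 were also lower, whereas Mgp, Eln and Cytl1, which encode matrix or secreted proteins of vessel walls, were higher, Cytl1 with 0 UMIs in the A2 HTN cells. Without the Ptn-bearing cells, 0 arterial genes were higher, and Sox17, Dll4 and Efnb2 were still lower. DESeq2 called Mgp and Eln higher and 4 arterial genes lower, and the fit with no library block called 0 either way. Of 19 BMP and TGF-beta genes 4 were lower (Bmp6, Smad6, Id1, Id3) and 0 higher. DESeq2 called only Id1 lower, and the fit without the Ptn-bearing cells only Smad6. Bmp6 and Smad6 passed without the A2 HTN library, and 0 passed without the SS HTN library or with no library block. Id1, a BMP target gene, was at 397 CPM in venous-type against 796 CPM in other endothelial cells of the A2 HTN library. It stood at 222 against 589 CPM in the SS HTN library (-1.23 ± 0.24, adjusted p = 0.00039). Of 14 Notch genes, Dll1 and Lfng were higher and Dll4, Hes1 and Fabp4 lower. DESeq2 called Dll1 higher and Dll4 and Hes1 lower. Without the Ptn-bearing cells, 0 Notch genes were higher and Dll4 and Hes1 lower, and with no library block 0 passed.

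Among 36 transcription factors of vessel identity, 6 were higher (Nr2f2, Prox1, Foxc1, Meis1, Foxp1, Zeb1) and 9 lower (Prdm1, Hlx, Sox17, Tbx3, Sox6, Ets2, Id1, Ets1, Id3). Foxp1 was at 553 CPM in venous-type against 363 CPM in other endothelial cells of the A2 HTN library. The SS HTN levels were 1793 against 577 CPM (1.13 ± 0.22, adjusted p = 0.00060). Prox1, the master factor of lymphatic endothelium, was at 7.79 CPM in venous-type against 2.02 CPM in other endothelial cells of the A2 HTN library. In the SS HTN library it was at 129 against 3.62 CPM. Of the SS HTN UMIs, 12 of 18 lay in 1 cell, which had 4 Sema3d UMIs and no Plvap, Ptn or Vwf. Without that cell Prox1 was too low to be tested. The lymphatic gene Itga9, an integrin subunit, was higher in both libraries. It was at 171 CPM in venous-type against 66.6 CPM in other endothelial cells of the A2 HTN library. Its SS HTN levels were 229 against 93.1 CPM (1.29 ± 0.29, adjusted p = 0.0029). Itga9 passed with the joined hypertension counts and with control library 2 added. It did not pass with DESeq2 (adjusted p = 0.21) or, by edgeR, without the Ptn-bearing cells (0.91 ± 0.39, adjusted p = 0.52). Nor did it pass without either hypertension library, with no library block, with at least 3 rule UMIs or with at least 2 rule genes. Flt4 was at 109 CPM in venous-type against 125 CPM in other endothelial cells of the A2 HTN library, and 35.7 against 81.0 CPM in the SS HTN library and did not pass. Pdpn had 0 UMIs in the SS HTN and control library 2 venous-type cells.

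Inflammatory and immune groups went different ways. Of 25 genes of NF-kB and acute inflammation, 4 were higher and 0 lower: Ackr3, a scavenger receptor of Cxcl12, Il33, which encodes an alarmin cytokine, Il6st, the shared receptor chain of the interleukin 6 family, and Il1r1. Ackr3 was at 210 CPM in venous-type against 15.2 CPM in other endothelial cells of the A2 HTN library. Its SS HTN levels were 514 against 16.3 CPM (4.40 ± 0.32, adjusted p = 6.4e-13). Il33 was at 132 CPM in venous-type against 58.3 CPM in other endothelial cells of the A2 HTN library. It stood at 457 against 29.0 CPM in the SS HTN library (2.73 ± 0.38, adjusted p = 1.4e-06). None of the 4 passed without the Ptn-bearing cells. Of 6 class II presentation genes, H2-Eb1, Cd74 and H2-Aa were higher and 0 lower. Cd74, the invariant chain, was at 662 CPM in venous-type against 418 CPM in other endothelial cells of the A2 HTN library. The SS HTN levels were 450 against 131 CPM (1.15 ± 0.25, adjusted p = 0.0019). It was at 131 against 186 CPM in control library 2, and DESeq2 called 0 of the 6. The edgeR fit also called 0 without either hypertension library, with no library block, with at least 3 rule UMIs and with at least 2 rule genes. The joined hypertension counts called the same 3 genes, control library 2 added called Cd74 and H2-Eb1, and cells without Ptn called H2-Eb1 only. Macrophage lists stood at 46.7 CPM in venous-type against 36.9 CPM in other endothelial cells of the A2 HTN library, and 28.6 against 24.8 CPM in the SS HTN library, and their part in the class II values was not tested. The edgeR test called 0 of 22 class I presentation genes, 0 of 35 oxidative phosphorylation genes and 0 of 20 immediate early and heat shock genes, with 0, 0 and 2 of them at an unadjusted p under 0.05, and DESeq2 called 0 in each. On simulated data the edgeR fit recovered 20.4% of 2-fold higher and 13.3% of 2-fold lower genes, so differences of that size can be missed.

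Of 5 genes tested from the list of pleiotrophin, midkine and their receptors, Ptprb, an endothelial receptor phosphatase gene, was higher, at 2104 CPM in venous-type against 1487 CPM in other endothelial cells of the A2 HTN library. In the SS HTN library it was at 3423 against 1919 CPM (0.63 ± 0.18, adjusted p = 0.025). Of 24 guidance ligands and receptors outside the rule, Plxna4 and Ephb4 were higher and Sema7a, Efnb2, Unc5b, Nrp1, Ntn4 and Efna1 lower. Of 11 genes of leukocyte adhesion and transmigration outside the rule, Jam2, a junctional adhesion molecule gene, was higher, at 218 CPM in venous-type against 193 CPM in other endothelial cells of the A2 HTN library. Its SS HTN levels were 1022 against 211 CPM (1.36 ± 0.30, adjusted p = 0.0021). In the osmotic and sodium handling list, Aqp1, Nedd4l and Nfat5 were higher and Sgk1 and Slc6a6 lower out of 18 tested. Sgk1, a kinase gene induced by mineralocorticoids and osmotic stress, was at 561 CPM in venous-type against 1008 CPM in other endothelial cells of the A2 HTN library. It stood at 236 against 844 CPM in the SS HTN library (-1.33 ± 0.24, adjusted p = 0.00011).

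Of 33 interferon-response genes, 9 were lower and 1 (Gbp4) higher, with a median of -0.72. Rsad2, an antiviral enzyme gene, was at 1114 CPM in venous-type against 2124 CPM in other endothelial cells of the A2 HTN library. The SS HTN levels were 243 against 1412 CPM (-1.66 ± 0.24, adjusted p = 3.8e-06). Irf7, an interferon regulatory factor gene, was at 46.7 CPM in venous-type against 217 CPM in other endothelial cells of the A2 HTN library. With 2 UMIs, the SS HTN cells had 14.3 against 123 CPM (-2.55 ± 0.44, adjusted p = 6.2e-05). Without the Ptn-bearing cells 1 gene of the list passed (Irf7, lower), without the A2 HTN library 1 (Rsad2, lower) and without the SS HTN library 0. DESeq2 called 3 lower. Among 24 matrix genes 4 were higher (Vwf, Mgp, Bgn, Tnxb) and 7 lower. Col4a1, a basement membrane collagen gene, was lower, at 631 CPM in venous-type against 901 CPM in other endothelial cells of the A2 HTN library. Its SS HTN levels were 286 against 598 CPM (-0.81 ± 0.23, adjusted p = 0.022). Igf1, insulin-like growth factor 1, from the medullary and vasa recta list, was at 1309 CPM in venous-type against 178 CPM in other endothelial cells of the A2 HTN library. It stood at 757 against 76.1 CPM in the SS HTN library (3.04 ± 0.23, adjusted p = 1.5e-12). In control library 2 Igf1 was at 982 against 73.2 CPM. That list had 5 of 11 genes higher (with Fxyd6, Aqp1, Cd9 and Nfat5) and 1 lower (Slc6a6, the taurine transporter gene). In the VEGF and angiopoietin list 3 of 14 genes were higher, Angpt2, Vegfc and Calcrl, and Nrp1 and Flt1 lower. DESeq2 called 0 of the 14 higher and Nrp1 lower, and the fit without the Ptn-bearing cells called Angpt2 higher and Nrp1 lower. On the higher side, the fit without the A2 HTN library called Vegfc only, and that without the SS HTN library Angpt2 only. Angpt2, a ligand of the Tie2 receptor, was at 156 CPM in venous-type against 16.5 CPM in other endothelial cells of the A2 HTN library. Its 20 UMIs in A2 HTN venous-type cells lay in 5 cells, with 9 of them in 1 cell. The SS HTN levels were 21.4 CPM, from 3 UMIs, against 14.2 CPM. Vegfc, a ligand of Vegfr3, was at 23.4 CPM in venous-type against 38.9 CPM in other endothelial cells of the A2 HTN library. In the SS HTN library it was at 336 against 80.4 CPM.

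**Figure D3:**
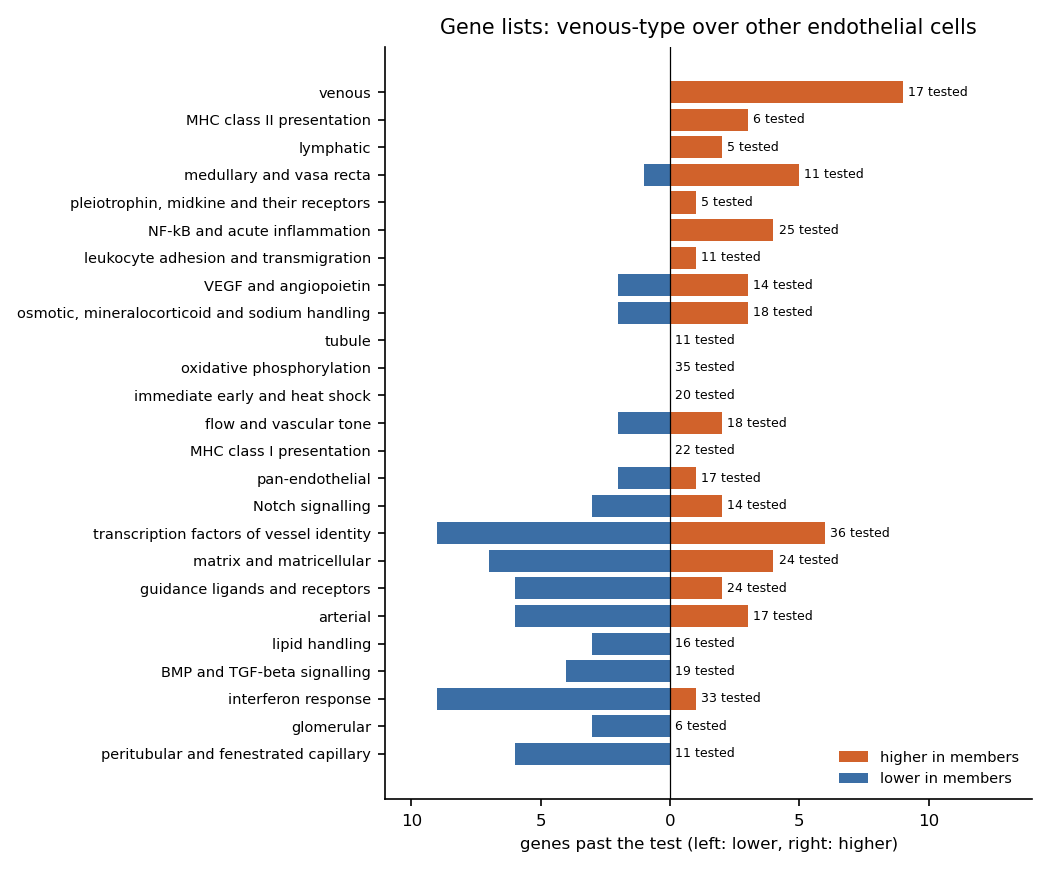
Number of genes of each list called higher (orange, to the right) and lower (blue, to the left) in venous-type than in other endothelial cells, with the number tested beside each bar. The venous list has 9 of 17 genes higher and none lower, and the capillary list has 6 of 11 lower and none higher.

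Set against single classes of endothelial cells, chosen by the same sums, the venous-type cells differed from the peritubular capillary cells (749 in the A2 HTN and 540 in the SS HTN library) in 184 higher genes (2.48% of those tested) and 102 lower genes (1.37%). They differed from the 109 arterial cells in 256 higher (3.42%) and 227 lower genes (3.03%), and from the medullary-type cells (210 and 395) in 340 higher (4.57%) and 244 lower genes (3.28%). The glomerular class was not compared. Nr2f2 was higher against each of the 3 classes compared, by 3.09 ± 0.29 against peritubular, 4.23 ± 0.37 against arterial and 3.44 ± 0.26 against medullary-type cells on the log2 scale, and so was Igf1, by 2.83 ± 0.24, 4.66 ± 0.35 and 3.09 ± 0.24. All adjusted p values of both genes were 3.3e-05 or less. Vwf was higher against each of these 3 classes as well, by 2.32 ± 0.31 against arterial cells, where it stood at 15.7 CPM in the A2 HTN and 305 CPM in the SS HTN library.

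Plvap separated the venous-type cells from arterial cells (1.98 ± 0.22, adjusted p = 1.1e-16) and medullary-type cells (0.83 ± 0.19, adjusted p = 0.00045) and did not pass the test against peritubular cells (-0.09 ± 0.20, adjusted p = 0.91). Bgn separated them from peritubular (2.99 ± 0.27, adjusted p = 2.6e-05) and medullary-type cells (3.61 ± 0.27, adjusted p = 9.6e-37) and did not pass against arterial cells (0.65 ± 0.26, adjusted p = 0.15). All 18 arterial genes tested were lower than in arterial cells, among them Sox17, with a log2 difference of -3.69 ± 0.32, and Gja5, a gap junction gene with 0 UMIs in the A2 HTN venous-type cells. The rule asks for fewer arterial than venous transcripts, so part of this direction follows from the choice of cells. Class II genes were higher than in arterial cells in 5 of 6 cases, Cd74 by 2.35 ± 0.31, and than in peritubular cells in 1 of 6.

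**Figure D4:**
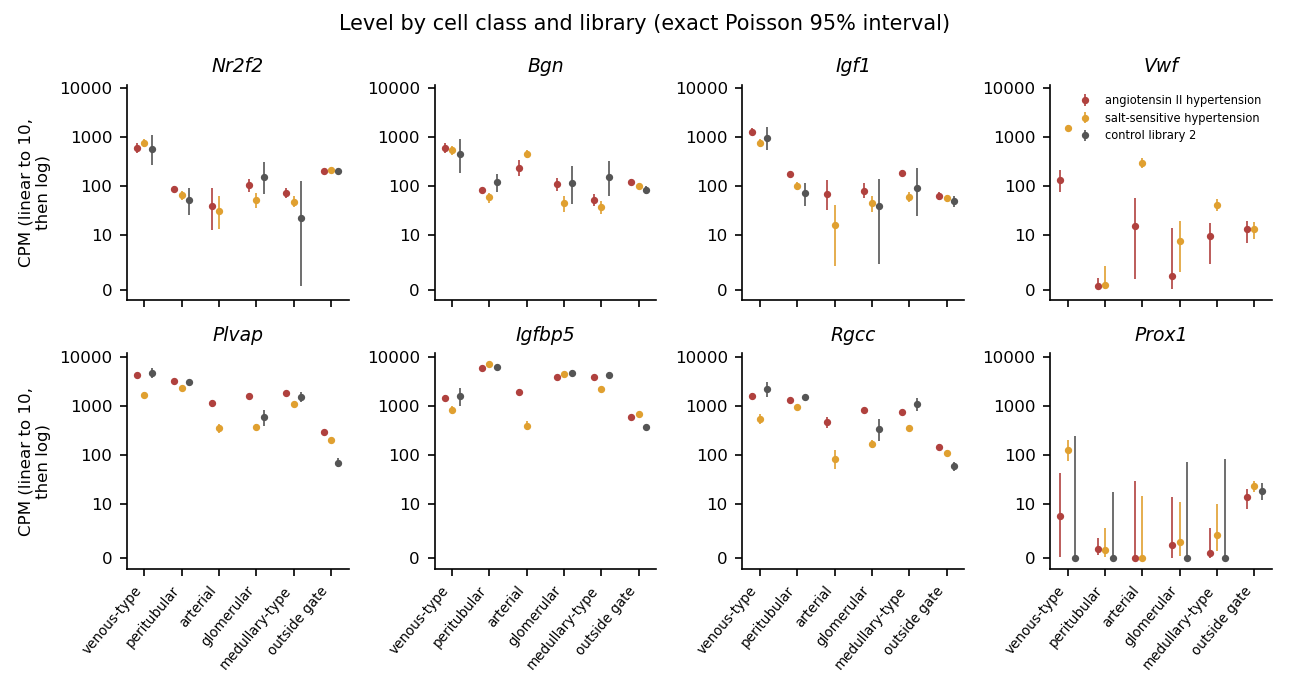
CPM of 8 genes by cell class in the A2 HTN, SS HTN and control library 2 libraries, with exact Poisson 95% intervals (counting error only; linear to 10 CPM, log above); Vwf is not in the control table, and control library 2 has no arterial cell. Nr2f2, Bgn and Igf1 stand highest in venous-type cells in all 3 libraries, though the Bgn interval of SS HTN arterial cells reaches that of the venous-type cells, and Plvap lies above the peritubular level in the A2 HTN and below it in the SS HTN library.

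The venous-type cells were not uniform. Within the SS HTN library, 27 cells had a Ptn UMI and 12 had none, at like depth (median 3468 and 3348.5 UMIs). Of 1588 genes with 20 or more UMIs over both, 14.2% were at least 2-fold higher and 9.38% at least 2-fold lower in the cells with Ptn, without a test since the cells come from 1 library and Ptn is a rule gene. The genes below were picked after their values were seen, by the size of the ratio. Vwf was at 2075 CPM in the cells with Ptn and 224 CPM in those without, a ratio of 9.27 (95% interval 4.79 to 20.6), and was detected in 25 of 27 and 3 of 12 cells. Ackr3 was at 702 CPM with Ptn against 49.7 CPM without and the glutamate receptor gene Gria3 at 531 CPM with Ptn against 24.9 CPM without. In the other direction, Rgcc, a cell-cycle regulator gene of capillary endothelium, was at 20.1 CPM in cells with Ptn and 1840 CPM in those without, and was detected in 2 of 27 and 7 of 12 cells. Igfbp5 was at 371 CPM with Ptn against 2014 CPM without, Cd36, the fatty acid receptor gene, at 90.2 CPM with Ptn against 647 CPM without, Chrm3, a muscarinic receptor gene, at 100 CPM with Ptn against 1069 CPM without, and Plvap at 1313 CPM with Ptn against 2561 CPM without.

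The same genes can be read in the A2 HTN library, where 5 cells had Ptn and 22 did not, at unlike depth (median 1829 and 5384 UMIs). Rgcc was at 723 CPM in the cells with Ptn and 1703 CPM in those without, with a UMI in 1 of 5 and 20 of 22 cells. Plvap was at 1591 CPM with Ptn against 4602 CPM without, Igfbp5 at 72.3 CPM with Ptn against 1633 CPM without, and Vwf at 1157 CPM with Ptn against 8.73 CPM without, with 15 of the 16 UMIs of the cells with Ptn in 1 cell. Nr2f2 was carried by all 5 and by 17 of 22 cells, at 1446 CPM with Ptn against 506 CPM without. In both libraries, then, the cells with Ptn were low in Plvap, Rgcc and Igfbp5 and high in Vwf relative to those without, and Bgn differed less. Bgn was at 795 CPM with Ptn against 594 CPM without in the A2 HTN library, and at 592 CPM with Ptn against 423 CPM without in the SS HTN library. Nr2f2, Bgn and Igf1 passed the test against other endothelial cells also when only cells without Ptn were kept, with log2 differences of 2.66 ± 0.29, 2.56 ± 0.28 and 2.92 ± 0.24, whereas Vwf did not (1.99 ± 0.63, adjusted p = 0.23). Among cells without Ptn, Igf1 was detected in 14 of 22 A2 HTN and 3 of 12 SS HTN cells. In these cells, 1 A2 HTN cell held 49 of the 162 Igf1 UMIs and 1 SS HTN cell 16 of the 25.

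Between the models, the A2 HTN venous-type cells were at least 2-fold higher than the SS HTN ones in 269 of 3164 genes with 20 or more UMIs over both (8.5%) and at least 2-fold lower in 285 (9.01%). The exact conditional 95% interval of the ratio left out 1 for 303 genes on the higher side (9.58%) and 322 on the lower side (10.2%). With 1 library per group these intervals cover counting error only, and no test was made. The median log2 ratio over all these genes was -0.00068.

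Lipid and capillary genes were among those higher in A2 HTN than in SS HTN venous-type cells. Of the lipid handling list, 4 of 6 genes with 20 UMIs were at least 2-fold higher, Fabp5, Fabp4, Gpihbp1 and Cd36, with a median log2 ratio of 2.10 against 0.50 in the other endothelial cells. Fabp4 was at 5734 CPM in A2 HTN and 679 CPM in SS HTN venous-type cells, a ratio of 8.45 (6.81 to 10.6), where the other endothelial cells of these libraries had a ratio of 1.24. It was detected in 21 of 27 and 12 of 39 cells, and its highest A2 HTN cell held 134 of the 736 UMIs. Fabp5, a related carrier, was at 444 CPM in A2 HTN against 35.7 CPM in SS HTN cells (ratio 12.4, 5.03 to 39.7), and Cd300lg, a receptor gene of capillary and venular endothelium, at 600 CPM in A2 HTN against 57.2 CPM in SS HTN cells (10.5, 5.07 to 25.2). Rgcc was at 1597 CPM in A2 HTN against 543 CPM in SS HTN cells (2.94, 2.25 to 3.88) and Cd36 at 841 CPM in A2 HTN against 250 CPM in SS HTN cells (3.36, 2.28 to 5.08). Of the capillary list, 8 of 11 genes with 20 UMIs were at least 2-fold higher and 0 lower, with a median log2 ratio of 1.39, against 0.48 for these genes in the other endothelial cells. Among cells without Ptn, 3 of the 11 were at least 2-fold higher, with a median of 0.54 against 0.08 over all genes, where 12% of 1774 genes were at least 2-fold higher and 8.23% lower. Fabp4 had a ratio of 5.41 (4.02 to 7.43) there and Cd300lg of 3.61 (1.67 to 9.30). Rgcc without Ptn was at 1703 CPM in A2 HTN against 1840 CPM in SS HTN cells, and Cd36 at 943 CPM in A2 HTN against 647 CPM in SS HTN cells.

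The highest ratios belonged to genes with few SS HTN UMIs. Bambi, which encodes a decoy receptor of TGF-beta family signals, had 22 UMIs in 10 A2 HTN cells and 1 UMI in the SS HTN cells (171 CPM in A2 HTN against 7.15 CPM in SS HTN cells, ratio 23.99, 3.88 to 990). Edil3, a secreted integrin ligand gene, had 21 UMIs against 1, and Fscn1, an actin-bundling protein gene, 25 against 2. Gna13, Angpt2, Gm11707 and Tspan15 had 19 to 21 UMIs against 3 each.

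The lower side held genes that were also higher in SS HTN cells with Ptn than in those without, such as Vwf and Cpe. Among cells without Ptn the Cpe ratio was 0.527 (0.0603 to 6.31), from 3 and 2 UMIs. Vwf there stayed lower in A2 HTN cells, at 8.73 CPM from 1 UMI against 224 CPM from 9 UMIs in SS HTN cells. Pcdh7 also kept its ratio there, though its SS HTN level was 423 CPM without Ptn against 800 CPM over all SS HTN cells. Pcdh7 was at 31.2 CPM in A2 HTN and 800 CPM in SS HTN venous-type cells (ratio 0.0389, 0.0104 to 0.103), it was carried by 4 of 27 A2 HTN and 21 of 39 SS HTN cells, and its ratio among cells without Ptn was 0.0413 (0.00463 to 0.174). The other endothelial cells had a Pcdh7 ratio of 0.119. Cpe, which encodes the prohormone-processing carboxypeptidase E, was at 31.2 CPM in A2 HTN against 493 CPM in SS HTN cells (0.0632, 0.0168 to 0.169), Vwf at 132 CPM in A2 HTN against 1543 CPM in SS HTN cells (0.0858, 0.0491 to 0.141), and Lrg1 at 62.3 CPM in A2 HTN against 379 CPM in SS HTN cells. For Vwf the other endothelial cells had a like ratio, 0.113, and for Cpe and Lrg1 the ratios there were 0.580 and 0.596. Nrxn3, Aqp1, Pdgfc, Dido1, Pid1, Cdh13, Mmp16 and Tmem158 had 1 to 3 UMIs in the A2 HTN cells and 20 to 56 in the SS HTN cells, of which 20 of 39 Aqp1, 13 of 26 Cdh13 and 20 of 35 Tmem158 UMIs came from 1 cell each. The shared venous genes Nr2f2 and Bgn differed less, with ratios of 0.802 (0.591 to 1.09) and 1.13 (0.817 to 1.57). Igf1, from the medullary and vasa recta list, had a ratio of 1.73 (1.35 to 2.23), below its 2.34 in the other endothelial cells.

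**Figure D5:**
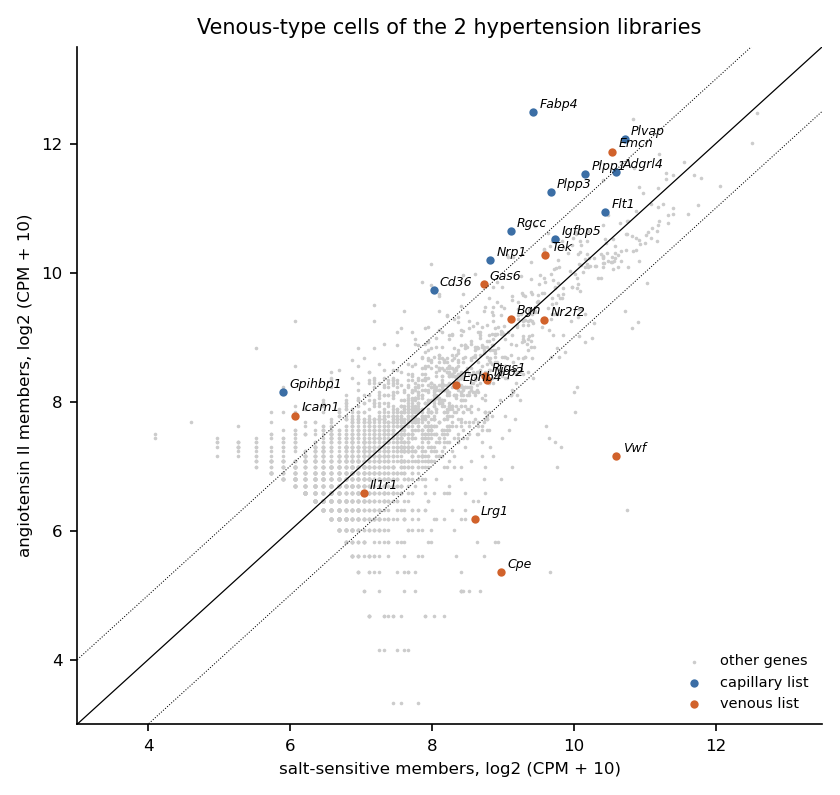
Level in A2 HTN (y axis) and SS HTN (x axis) venous-type cells as log2 of CPM + 10 for the 3164 genes outside the rule, and for rule genes (grey), with 20 or more UMIs over both; the solid line marks equal levels and dotted lines 2-fold on this scale. Capillary list genes outside the rule (blue, Plvap among them) lie above the solid line, and Vwf, Lrg1 and Cpe (orange) lie below the lower dotted line.

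The control reference was too small for ratios by gene, since control library 2 gave 6 cells with 15289 UMIs. The counting intervals of Nr2f2 (589 CPM, 270 to 1119), Bgn (458 CPM, 184 to 945), Igf1 (982 CPM, 550 to 1620) and Sema3d (1179 CPM, 699 to 1863) overlapped those of the venous-type cells in both hypertension libraries. Plvap was at 4715 CPM (3690 to 5938), near the 4277 CPM of the A2 HTN cells and above the 1672 CPM of the SS HTN cells, and Rgcc was at 2227 CPM. The Ptn-bearing control cell carried 7 Nr2f2, 6 Vcam1 and 0 Rgcc UMIs, and 4 of the 5 cells without Ptn carried Rgcc.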

How the data were processed

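Each group was 1 library of pooled mouse kidneys, made with a Chromium 3' kit per the labels' protocols. Cell Ranger 7.0.0 and Seurat 4.1 appear in the submitters' processing notes, with build mm10. The 4 tables hold the raw counts of UMIs that the authors deposited. The joined hypertension table served only as an alternative. Members and gene lists were chosen with earlier results of these data known. All deposited cells were kept, no doublet caller was run, and genes not in both hypertension tables (11897 shared) are not analysed here. Counts were summed per library and class and tested with edgeR 4.0.16 (R 4.3.3): quasi-likelihood, TMM, library as block, mean CPM of at least 20, Benjamini-Hochberg over 7482 genes outside the rule, adjusted p under 0.05. SE is the log2 difference divided by the root of F. Only 2 libraries had 10 members, which leaves 1 residual degree of freedom beside 37.1 prior degrees. The p-values thus rest mostly on a dispersion pooled over genes, and little on the spread of each gene between these libraries. They hold no measure of the spread between animals, which were pooled. The fit was tested on simulated data with known changes. It recovered 94% of 4-fold higher, 20.4% of 2-fold higher, 13.3% of 2-fold lower and 57.9% of 4-fold lower genes. It made 7 false calls, and a gene that did not pass can still differ 2-fold. Ratios between libraries are of CPM with exact conditional binomial 95% intervals, which, like the Poisson and Clopper-Pearson intervals, cover counting error only. A count of 0 was read as up to 3. Named genes are the 15 highest and 10 lowest past the test with 1 direction in both libraries, the 10 highest and 10 lowest ratios whose interval leaves out 1, the rule and label genes, and list members. Positions are those of GRCm38.p6, the assembly of mm10. Alternatives included DESeq2 1.42.0, other filters and other member rules.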

Additional observations from a re-analysis of the deposited data

Results flagged for a closer look

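For 3 genes named in the comparison of the models, the venous-type cells lay on opposite sides of the other endothelial cells of their own library, with a counting interval that left out 1 in both libraries. For other named genes on opposite sides, such as Fscn1, Cdh13 and Cd36, the interval held 1 in at least 1 library. The ratio of CPM in venous-type over other endothelial cells was 2.67 in the A2 HTN library and 0.145 in the SS HTN library for Bambi. It was 1.99 in the A2 HTN and 0.248 in the SS HTN library for Gna13, and 0.15 in the A2 HTN and 2.26 in the SS HTN library for Dido1. Each value below 1 rests on 1 to 3 UMIs in venous-type cells, each library is 1 sample, and the difference between libraries was not tested.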

How the results depend on the processing

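Against 258 higher and 169 lower genes in venous-type than other endothelial cells, DESeq2 called 118 and 33, a CPM minimum of 50 gave 155 and 82, and the fit with no library block (no replicate block) gave 14 and 3. A minimum of 3 rule UMIs gave 103 higher and 43 lower, members with at least 2 rule genes 142 and 72, and dropping cells with over 1% other-cell markers 211 and 110. From the joined hypertension counts came 140 higher and 82 lower genes. Leaving out 1 hypertension library, with control library 2 in the fit, gave 37 to 130 higher and 18 to 77 lower. Members without Ptn, chosen after seeing the data, gave 52 and 24. No gene called in one of these settings was called in the opposite direction with all cells. RLE factors, no filter, control library 2 added, the deepest 5% of cells left out and the Prox1-rich cell left out stayed within 1.5 times of both counts. No paired analysis was possible because each group is 1 library, and the library block above is the only pairing. Thinning to 1000 UMIs moved the member share to 0.686% in the A2 HTN, 1.77% in the SS HTN and 1.28% in control library 2, or 1.14% over both controls. Between the models, no filter gave 2043 genes with ratios at least 2-fold higher and 1659 lower, and members without Ptn 146 lower. The counts with no filter include genes without a UMI in 1 library, read there as 3 UMIs. Such a gene can be counted on the side opposite to its UMIs, so these counts do not show which library is higher. Named-gene ratios with 3 or fewer UMIs on both sides were not compared between settings. That limit was not applied to the counts with no filter. Thinned fits and ratios over control were not run, since a library then held fewer than 10 members. The comparisons with single classes were fitted with main settings only. Genes under about 20 UMIs are limited by depth.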
